A study of Mus musculus with 2 samples.

Results

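The 263 NRF1 peaks described here lay just downstream of transcription starts in mouse skeletal muscle, beyond the promoter window. They were chosen by position alone from the 3226 peaks of 1 deposited list. The summit of each, that is, the base with the highest signal, was more than 100 and at most 2000 bp after the nearest known RefSeq transcription start, read along the gene. No chosen summit fell in a promoter, taken as 1000 bp before to 100 bp after any known start. They are called downstream peaks, and they made up 8.15% of the list, against 2607 promoter peaks (80.8%). The 328 distal peaks had their summit more than 2000 bp from every known start, and 28 peaks fitted none of these groups. The downstream peaks belonged to 261 genes. Genes with 2 of them included Laptm4a and Pcyox1, and Htd2 and Rpp14 shared a start.

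The study examined chromatin binding of the glucocorticoid receptor, LSD1 and NRF1 in muscle. NRF1 was mapped by ChIP-seq, in which an antibody enriches the DNA bound by a protein before sequencing. The 2 libraries of the series are both labelled as wild-type skeletal muscle with an NRF1 antibody, and the labels give no age or treatment. The study's reporting summary lists the second of them as input DNA, at odds with its label, and all peak names carry the title of the first. Each peak therefore has 1 value, no replicate error can be given, and every comparison below is between groups of peaks of the same list, with exact tests that cover counting error over peaks only.

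Nuclear respiratory factor 1 (NRF1) regulates transcription and contacts DNA as a dimer at a GC-rich palindrome with a CpG in each arm. It is known for its sites at promoters of nuclear genes that encode mitochondrial and other housekeeping proteins. Most such promoters are CpG islands, which extend past the transcription start into the first exon and first intron, and transcription can begin at several places within them.

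The motif searched was GCGCATGCGC, which reads the same on both strands, with at most 1 mismatch and wholly within 100 bp of the summit. Sites are printed along the gene's strand, with the motif copy in capitals and 10 bases to either side in lower case, from RefSeq's GRCm38 sequence, the assembly of mm10. The first set comes from the strongest downstream peaks with the exact palindrome, which lay in the 5′ untranslated region of Alkbh5 and P4hb and in the first intron of the other genes.
Alkbh5 at chr11:60537909-60537938, plus strand: ggcctcgtctGCGCATGCGCcggcctctcc
P4hb at chr11:120572949-120572978, minus strand: gcgcggcgggGCGCATGCGCacggcggctg
Fancl at chr11:26387424-26387453, plus strand: ccgatactctGCGCATGCGCggtcgctagg
Nr1d2 at chr14:18238391-18238420, minus strand: ggggcccgctGCGCATGCGCatccgccgca
Ctbp1 at chr5:33274597-33274626, minus strand: aacgggtgatGCGCATGCGCgaactgctgc

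The second set is from strong peaks whose best copy differed from the palindrome at 1 base. These sites lay in the 5′ untranslated region of Polr2a and Rab33b, in an intron of Zbtb21 and Ftx, and in an exon of the non-coding transcript 4930526I15Rik.
Zbtb21 at chr16:97962268-97962297, minus strand: tccaagcactGCGCATGCTCtctgcccgca
4930526I15Rik at chr9:124424665-124424694, plus strand: tgcaggcagcGCACATGCGCattgcgttta
Polr2a at chr11:69758231-69758260, minus strand: agcgaggtttGCGCCTGCGCagcgcgcctg
Ftx at chrX:103622450-103622479, minus strand: gaatgaaagtGCGCATGCGTaagagggagc
Rab33b at chr3:51484133-51484162, plus strand: gaggcctactGCGCGTGCGCcggggcctta

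The third set is from downstream peaks at genes of mitochondrial proteins. The Ndufs8 site lay in the 5′ untranslated region, and those of Ndufb7 and Mrpl54 lay in an intron, although the Ndufb7 summit itself was in a coding exon.
Ndufs8 at chr19:3912522-3912551, minus strand: gcaccctcagGCGCATGCGCtgcctcgccg
Ndufb7 at chr8:83566932-83566961, plus strand: tgagctcagtGCGCAGGCGCgaccgcagat
Mrpl54 at chr10:81266594-81266623, minus strand: tacgctcagtGCGCAGGCGCggcccttgtg

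The last set shows the exact palindrome at the weakest downstream peaks that held it, both in intron 1.
Zfp180 at chr7:24082267-24082296, plus strand: tggtcgatgtGCGCATGCGCagggtctagg
Ptgr1 at chr4:58986648-58986677, minus strand: gtggggatttGCGCATGCGCagtgaaagct

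The share of downstream peaks with the motif was near that of the whole list. The motif was found at 169 of 263 downstream peaks, or 64.3% (Wilson 95% interval 58.3 to 69.8%), and at 64.8% of all 3226 peaks. Promoter peaks held it in 1719 of 2607 cases, or 65.9%, and the difference did not pass the test (odds ratio 0.93, Fisher's exact test, two-sided, adjusted p = 0.666, as all p-values here adjusted by Benjamini-Hochberg over 12 tests). Distal peaks held it in 187 of 328 cases, or 57.0% (51.6 to 62.3%), which did not pass either (odds ratio 1.36, exact test, adjusted p = 0.229). That comparison turned with the setting, from an odds ratio of 0.89 with GENCODE starts to 1.84 with at most 2 mismatches (exact test, adjusted p = 0.0453). The exact palindrome was found at 30 downstream peaks, or 11.4% (8.11 to 15.8%), against 10.8% of all peaks and 10.9% of promoter peaks (odds ratio 1.05, exact test, adjusted p = 0.836). A p above the threshold does not show that the shares are equal.

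The 3 most frequent spellings of the motif were the same downstream and in promoters. Chromosome 18 is left out of this count, and both strands are counted as 1 spelling. GCGCAGGCGC, or GCGCCTGCGC on the other strand, was present at 56 of 251 downstream peaks (22.3%) and at 23.1% of promoter peaks. GCGCACGCGC was present at 41 (16.3%) and likewise at 16.3% of promoter peaks. The exact palindrome was present at 27, or 10.8%, against 10.9%. The first of these spellings is seen in the Ndufb7 and Mrpl54 sites printed above. Fold enrichment is the ratio of the signal at the summit to the control background, as the authors deposited it. The exact palindrome had a median fold enrichment of 14.3 downstream and 14.2 in promoters, whereas GCGCAGGCGC had 9.43 and 13.7, and GCGCACGCGC 9.89 and 13.3. These medians are a description and were not tested. Of the 94 downstream peaks without the motif, 65 had a 10-base stretch with 2 mismatches near the summit.

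The position of the motif is given as a description, since it was searched only near the summit and the rule keeps summits away from the start. The nearest copy was centred within 25 bp of the summit at 108 of the 169 downstream peaks that held it, or 63.9%, with a median distance of 17.5 bp. In promoters this was 1305 of 1719, or 75.9%, with a median of 12.5 bp. The best copy was before the summit along the gene in 84 cases and after it in 85. Within 100 bp of the nearest known start itself, the motif was found at 23 of 263 downstream peaks, or 8.75%, and at 50.3% of promoter peaks, whose summits were chosen by their position at a start. At some downstream peaks, such as those of Rwdd2b and Mapre3, the best copy was itself that close to the start.

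**Figure D1:**
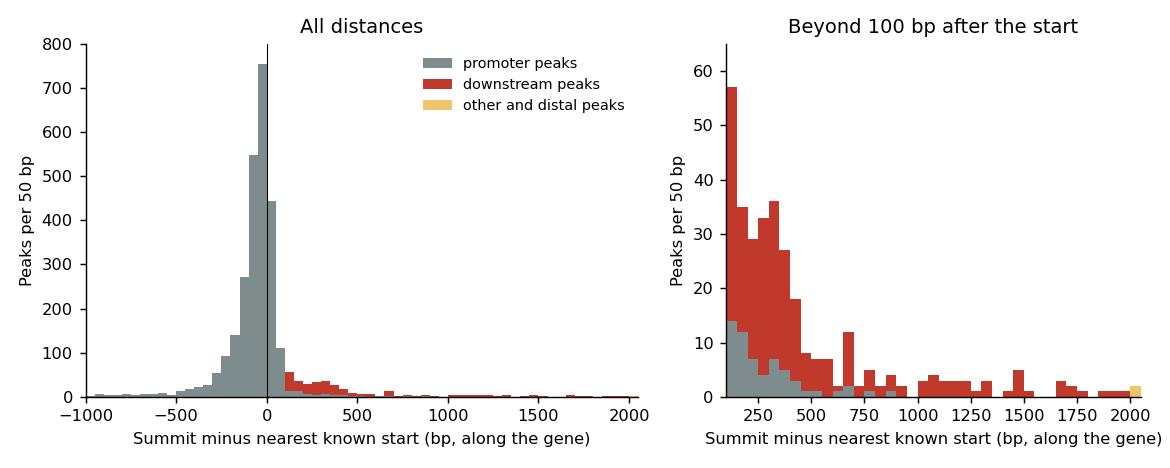
Number of peaks per 50 bp by the distance of the summit from the nearest known start, in bp along the gene, for all distances from -1000 to 2000 bp (left) and beyond 100 bp after the start (right, other scale). Colours mark promoter, downstream and other peaks, and grey bars beyond 100 bp are promoter peaks of another start. Downstream peaks were densest close to the start, 190 of 263 lying within 500 bp of it.

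Most downstream peaks lay within 500 bp of the start. The median distance of the summit was 319 bp, with quartiles of 200 and 570 bp. There were 67 summits up to 200 bp after the start, 51 from there to 300 bp, 50 to 400 bp and 22 to 500 bp. A further 37 lay beyond 500 and up to 1000 bp, 26 beyond that up to 1500 bp and 10 up to 2000 bp. The peak interval often reached back over the limit of the rule: 112 intervals (42.6%) overlapped the promoter window of the nearest start and 75 (28.5%) covered the start itself. Peaks that covered the start had a median fold enrichment of 12.8 and the other 188 a median of 7.92. Their part in the comparisons with promoter peaks was not tested.

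By the part of the gene at the summit, 139 downstream peaks (52.9%) were intronic, 81 (30.8%) were in a 5′ untranslated region, 38 (14.4%) in a coding exon and 5 in an exon of a non-coding transcript. In the transcripts that begin at the nearest start, 135 summits (51.3%) were in intron 1 alone and 38.4% in exon 1 alone. Summits in 5′ untranslated regions were closest to the start, with a median of 183 bp, while those in coding exons had a median of 414 bp and those in introns of 382 bp. The first coding base of the gene was still ahead of the summit in 130 of 249 cases and had been passed in 119. The genes were protein-coding for 253 peaks, long non-coding for 9 and a microRNA gene for 1. The last of these, Mir6769b, ends before the summit, which lay 1668 bp after its start in a coding exon of another gene.

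Other start annotations placed many of these summits in a promoter. Counting predicted RefSeq starts, 66 of the 263 summits were within a promoter window, and counting GENCODE basic starts 89 were. In all 129 (49.0%) lay in the window of a start of at least 1 of these kinds, 98 of them at a start of the same gene and 31 at one of another gene only. The remaining 134 lay in neither. The motif was present at 84 of the 129 (65.1%) and at 85 of the 134 (63.4%), and median fold enrichment was 9.51 and 8.42. Of the 12 strongest, Alkbh5, P4hb, Polr2a and Ftx had their summit in a GENCODE window of the same gene, 4930526I15Rik in that of Ppp2r3d, and Slc34a3 and Zbtb21 in the window of a predicted start. Those in Fancl, Nr1d2, Sfpq, Rab33b and Ctbp1 lay in no window of any of these annotations.

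In base content the downstream summits were closer to promoter peaks than to distal ones. Within 100 bp of the summit median GC content was 66.2%, against 66.7% in promoter and 58.2% in distal peaks. The CpG ratio, the number of CpG over that expected from the base content, had a median of 0.904, against 0.926 and 0.672. Along the gene it had a median of 0.925 up to 500 bp after the start and 0.823 beyond. These values are descriptions without a test.

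Downstream peaks were weaker than promoter peaks. Median fold enrichment was 8.90 downstream (quartiles 6.50 and 13.1), 11.1 in promoters (7.90 and 16.4) and 8.57 in distal peaks (6.01 and 12.5). Above the median of the whole list, 10.7, were 98 of 263 downstream peaks, or 37.3% (31.6 to 43.2%), against 1389 of 2607 promoter peaks, or 53.3% (51.4 to 55.2%), and 49.9% of all peaks. This gave an odds ratio of 0.52 (two-sided exact test of Fisher, adjusted p = 9.08e-06), which lay between 0.39 and 0.63 under the alternatives, past the threshold in each. Distal peaks exceeded the median in 112 of 328 cases, or 34.1%, and this difference did not pass (odds ratio 1.15, exact test, adjusted p = 0.666).

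**Figure D2:**
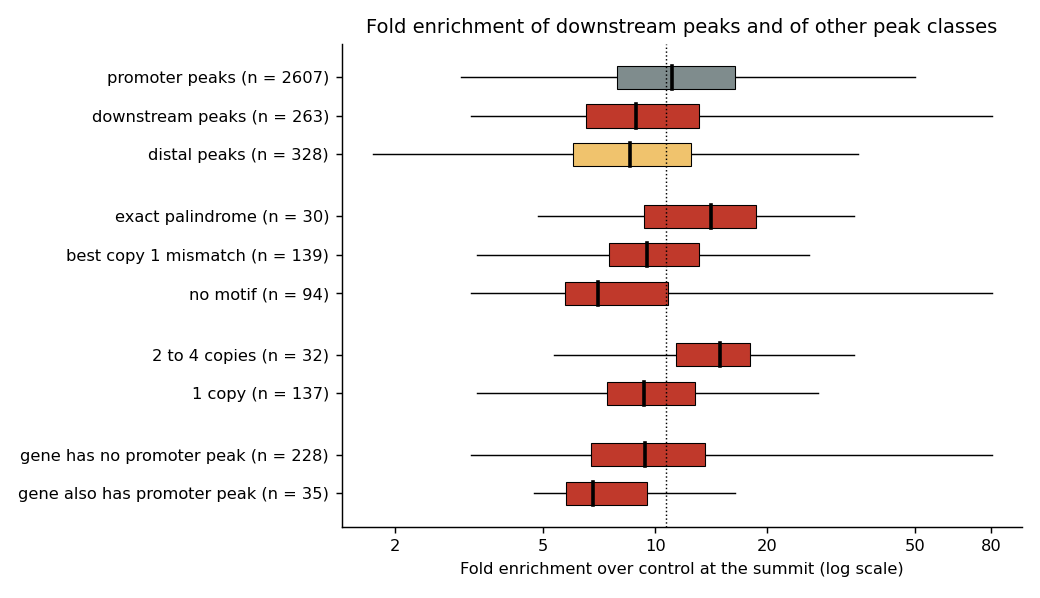
Fold enrichment over control at the summit, on a log axis, for 3 classes of peaks (top) and for groups of downstream peaks by motif, number of motif copies and presence of a promoter peak at the same gene. Boxes span the quartiles, thick lines are medians, thin lines run from lowest to highest and the dotted line is the median of all peaks, 10.7. The median was 14.1 with the exact palindrome, 9.51 with 1 mismatch and 7.03 with no motif.

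Within the downstream peaks, those with the motif were stronger. The median fold enrichment was 9.95 at the 169 with the motif and 7.03 at the 94 without, and 74 (43.8%) against 24 (25.5%) exceeded the list median (odds ratio 2.27, Fisher's exact test, two-sided, adjusted p = 0.0209). The call was lost in 5 of 10 alternatives, where the odds ratio was 1.20 to 2.13 (exact test, adjusted p from 0.0546 to 0.699). With the exact palindrome the median was 14.1, and 19 of 30 peaks exceeded the list median. With 1 mismatch as the best copy it was 9.51 and 55 of 139 did. Peaks with at least 2 copies had a median of 14.9, with 25 of 32 above the list median, and peaks with 1 copy had 9.30, with 49 of 137 above it.

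No test by position within the gene passed the threshold. Near summits, up to 500 bp after the start, held the motif in 119 of 190 cases (62.6%) and far ones in 50 of 73 (68.5%; odds ratio 0.77, exact test, adjusted p = 0.666). They exceeded the list median of fold enrichment in 38.9% and 32.9% of cases (odds ratio 1.30, exact test, adjusted p = 0.666). Exonic summits held the motif in 77 of 124 cases (62.1%) and intronic ones in 92 of 139 (66.2%; odds ratio 0.84, exact test, adjusted p = 0.666), and median fold enrichment was 8.89 and 9.10. The intervals of these shares are wide: at far summits the motif share was 68.5% with an interval of 57.1 to 78.0%.

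**Figure D3:**
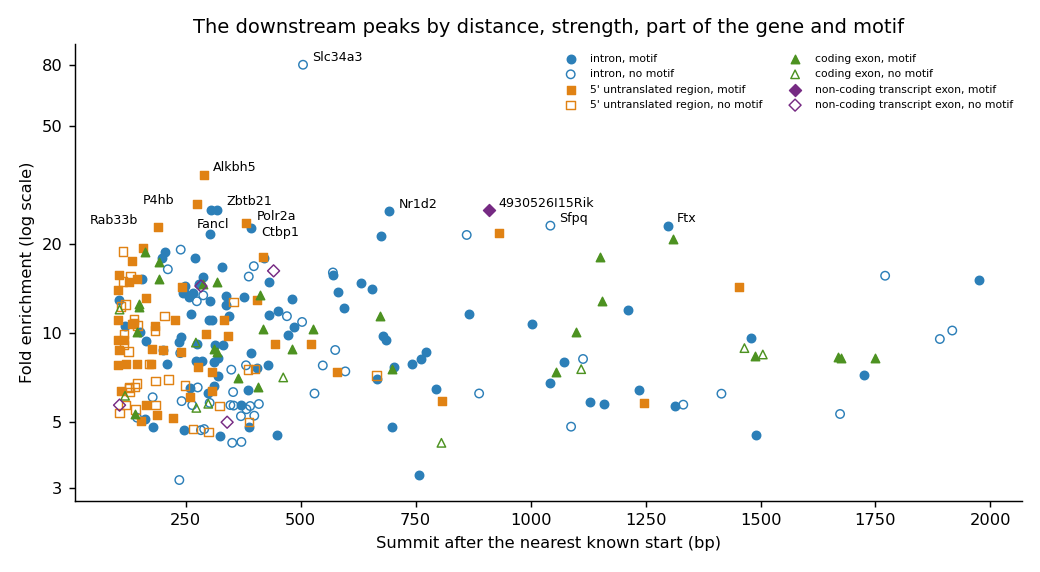
Each point is 1 of the 263 downstream peaks, by the distance of its summit after the nearest known start (bp) and its fold enrichment (log axis), with the shape for the part of the gene, filled points with the motif and the 12 strongest named. Points above 20 occurred from 190 to 1310 bp, and the highest, in Slc34a3 at 80.1, had no motif.

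The strongest downstream peaks belonged to genes of very different roles. That in an intron of Slc34a3, which encodes a sodium-phosphate cotransporter, stood far above the others with a fold enrichment of 80.1 and a CpG ratio of 0.0794, and no 10-base stretch near its summit came closer to the palindrome than 4 mismatches. It was followed by Alkbh5, which encodes an RNA demethylase, at 34.2. At chr11:120572853-120573440, P4hb, the gene of a protein disulfide isomerase, had 27.3, with its summit 274 bp after the start and before the first coding base. Intron 1 of Fancl, the ubiquitin ligase of the Fanconi anaemia pathway, had 26.0 at chr11:26387033-26387549. Zbtb21, a zinc finger gene, had 25.9 at chr16:97961993-97962736, equal to the non-coding 4930526I15Rik. The 4930526I15Rik peak at chr9:124424329-124425180 was 852 bp wide. Within 100 bp of its summit lay 4 copies of the motif, more than at any other downstream peak.

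Next by fold enrichment came Nr1d2, which encodes the clock repressor REV-ERBβ, with 25.7 at chr14:18238217-18238611, 693 bp into the gene, with the exact palindrome centred 7.5 bp from the summit. Polr2a, which encodes the largest subunit of RNA polymerase II, had 23.4 at chr11:69757989-69758380, its summit 29 bp before the first coding base. Ftx, a non-coding RNA gene of the X-inactivation centre, had 23.0 at chrX:103622322-103622588, 1299 bp after the start. Sfpq, which encodes an RNA-binding protein of paraspeckles, also had 23.0, at chr4:127022063-127022474 and without the motif. Rab33b, the gene of a Golgi GTPase, had 22.7 and the corepressor gene Ctbp1 had 22.5. The Ctbp1 interval was the widest of all downstream peaks, 1258 bp. Within 100 bp of its summit lay 3 copies, of which the best was exact. Fold enrichment exceeded 20 at 17 downstream peaks.

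**Figure D4:**
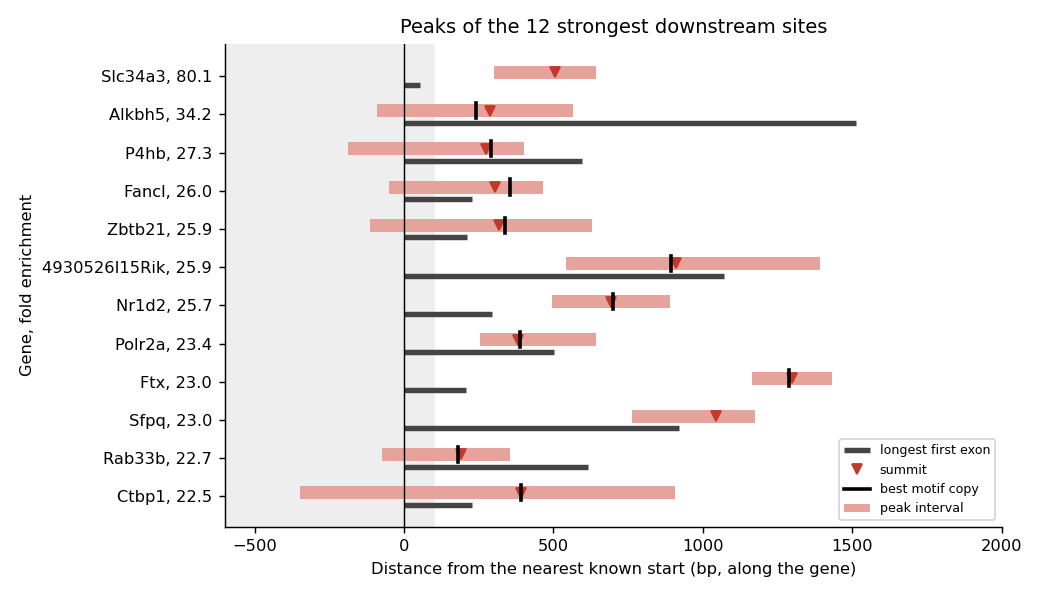
Map of the 12 strongest downstream peaks along their genes, in bp from the nearest known start (vertical line), with the fold enrichment beside each gene name. Light bars are peak intervals, triangles summits, black ticks the best motif copy, dark bars the longest first exon that begins at that start, and the grey band the promoter window up to 100 bp after it. The 6 intervals of Alkbh5, P4hb, Fancl, Zbtb21, Rab33b and Ctbp1 reached back across the start, and the other 6 did not.

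Several copies, the exact palindrome and high signal did not always go together. Besides 4930526I15Rik, Alkbh5 and Ctbp1, 3 copies were found in Ccdc12 (17.9), Acaa1a (15.2), which encodes a peroxisomal thiolase, and Ube2cbp (7.15), so that their fold enrichments spanned from under the list median to 34.2. Exact copies were found beyond the first printed set in Angptl6 (20.7), Htd2 and Rpp14 (19.4), Ino80c (18.8), Ccdc12 (17.9, as above), Tuba1b (17.9), Mier2 (15.2) and D2hgdh (14.9). At the other end the exact palindrome was present at Ptgr1 with 5.72 and at Zfp180 with 4.84. Without a copy of the motif within 100 bp of the summit, Sertad3 had 21.4, Zfp619 19.1 and Naa40, which encodes a histone N-terminal acetyltransferase, 18.8. The Naa40 peak also covered the start, 114 bp from the summit, and a copy lay within 100 bp of that start, as at 12 of the 94 downstream peaks without the motif at the summit. In coding exons the strongest were Angptl6, in exon 2, Adi1 with 18.8 and Sft2d3 with 18.1, and the exact palindrome of Angptl6 thus lay in coding sequence. The lowest fold enrichments were those of Rnh1 (3.20), 2310040G24Rik (3.32), Ppp1r3e (4.27) and Polr3b (4.27). All downstream peaks had a q-value, the false discovery rate given by the authors, of at most 0.01, a value exceeded by 7 of the 3226 peaks of the list. The number of peaks in the list differs from the number of sites that the study counted, so the sets are not the same.

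For 35 downstream peaks, in 34 genes, the same gene also had a promoter peak. These downstream peaks had a median fold enrichment of 6.79, against 9.36 for the 228 of genes without one. They exceeded the list median in 7 of 35 cases against 91 of 228, which did not pass after adjustment (odds ratio 0.38, Fisher's exact test, two-sided, adjusted p = 0.0984). The motif was present at 21 of 35 and 148 of 228 (odds ratio 0.81, exact test, adjusted p = 0.666). In 26 of the 35 the strongest promoter peak of the gene was above the downstream one. Over all 35, the strongest promoter peak had a median of 10.3. The strongest downstream peaks of this kind were in Atxn2l (16.4, with 16.9 in the promoter), Bcl7b (16.0 and 18.5) and Acaa1a (15.2 and 10.3). Acaa1a was thus stronger downstream. The widest gaps in the other direction were at Rbbp7, with 5.72 downstream and 30.8 in its promoter window, and at Mllt3, with 5.77 and 23.6. Promoter and downstream peaks of 1 gene come from the same library and are not independent. Each peak was also counted in 1 class only, by its summit, even where its interval covered the start. The 75 downstream peaks that covered the start had a median fold enrichment of 12.8, and the other 188 had 7.92. Their part in the comparison of 6.79 with 9.36 was not tested.

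**Figure D5:**
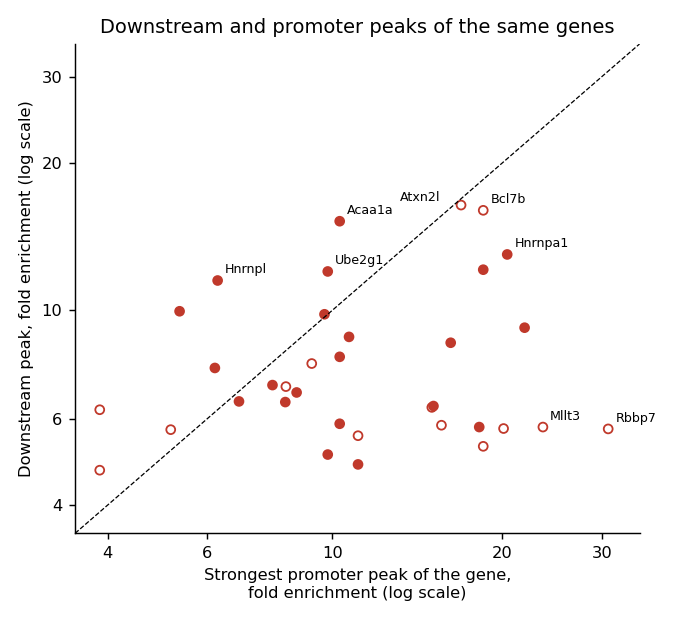
Fold enrichment of the 35 downstream peaks whose gene also has a promoter peak (vertical) against that of the gene's strongest promoter peak (horizontal), both on log axes, with equal values on the dashed line and filled points for downstream peaks with the motif. In 26 of 35 the point lies below the line. Pcyox1, with 2 downstream peaks, appears with 2 points.

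Among protein-coding genes, 251 of 21000 had a downstream peak, or 1.20%, and 2808, or 13.4%, had a promoter peak. The lists below were set against these shares without a test, and they hold few genes each. In the respiratory chain, 3 of 97 genes had a downstream peak, and none of the 3 had a promoter peak, while 39 genes of the list did. Ndufs8, an iron-sulfur subunit of complex I, had a fold enrichment of 14.3 at chr19:3912383-3912864 with the exact palindrome, and its summit lay in the promoter window of a GENCODE start of the same gene. Ndufb7, another subunit of complex I, had 10.1 at chr8:83566620-83567010, its summit 82 bp past the first coding base. Cox7a2, a subunit of cytochrome c oxidase, had 5.72 and no motif. Of 78 genes of the mitochondrial ribosome, listed by symbol, 1 had a downstream peak, Mrpl54, at 21.5 and 303 bp after its start, and this summit also lay in the promoter window of predicted and GENCODE starts of Apba3. Dap3, which encodes a protein of the same ribosome but is not in the list, had 6.58 and no motif, 126 bp after the start. The cytosolic ribosome had 1 of 100, Rpl22 at 5.39, 106 bp after the known start and in the promoter window of a GENCODE start of the gene. The Dap3 summit lay in the promoter window of predicted and GENCODE starts of Dap3 as well. Whether Ndufs8, Rpl22 and Dap3 count as having a promoter peak thus depends on the annotation. The summits of Ndufb7 and Cox7a2 lay in no window of any of these annotations, and that of Mrpl54 in none of its own gene. This holds for the summits only. The peak intervals of Ndufs8, Ndufb7 and Mrpl54 covered the known start of their gene, and that of Cox7a2 overlapped its promoter window.

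The lists of protein breakdown had shares of 1.96% (proteasome), 2.14% (ubiquitin conjugation) and 1.35% (deubiquitinases). The proteasome had 1 of 51, Psma5, an alpha subunit of the core, at 13.1 in its 5′ untranslated region. Among 281 genes of ubiquitin conjugation, listed by symbol, 6 had a downstream peak. The list leaves out other genes of ubiquitin ligases with downstream peaks, among them Fancl, Spop (9.81), Mdm2 (7.62) and Nedd4 (6.79). Ube2g1, a ubiquitin-conjugating enzyme, had 12 at 1211 bp after the start, besides a promoter peak of 9.81. Trim28, Cul7, Fbxl15 and Trim27, which encode ubiquitin ligases or their subunits, had 8.77, 7.87, 7.68 and 4.75, and Ube2cbp had 7.15. Usp10 was the 1 of 74 deubiquitinases, with 18.1 and its summit 141 bp before the first coding base. No gene of the 34 for autophagy and none of the 23 catabolic loci shown by the study had a downstream peak, while 12 and 15 of them had a promoter peak. At the share of all protein-coding genes, fewer than 1 gene with a downstream peak would be found in a list of either size.

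Among 69 splicing factors 5 had a downstream peak, or 7.25%, and 3 of these 5 also had a promoter peak. Fold enrichment was 13.0 at Hnrnpa1, 11.5 at Hnrnpl, 8.66 at Srsf1, 8.58 at U2af2 and 7.84 at Hnrnpdl. Each of the 5 held the motif. The list leaves out other genes of splicing proteins with a downstream peak, among them Snrnp35 (15.5) and Luc7l2 (8.77) without the motif and Rnpc3 (13.2) with it. Among RNA-modifying enzymes, listed by symbol, 3 of 69 had a downstream peak (4.35%). Besides Alkbh5 these were Mettl14, a subunit of the RNA methyltransferase for N6-methyladenosine, with 6.34 and no motif, and Mettl21a with 7.40, which is known for methylating a protein and not RNA. The list leaves out the tRNA-modifying enzyme genes Trmo (6.08) and Dus3l (5.54), which also had a downstream peak. Of 53 RNA helicases Ddx3x had 6.26 and Dhx30 had 5.16, and of 71 translation factors Eif3d had 8.67 and Eif4b had 7.03. Among 72 enzymes of histone methylation and deacetylation 4 had one, 5.56% of the list: the lysine demethylase family genes Kdm8 (12.4) and Kdm4a (12.3) and the methyltransferase genes Setd1a (7.89) and Suv39h2 (7.78). This list too was made by symbol and leaves out other such genes with a downstream peak, among them the methyltransferase genes Nsd1 (9.55) and Prmt2 (6.33). Promoter peaks were found at 34.7% of its genes, at 40.6% of the splicing factors and at 20.3% of the RNA-modifying enzymes. Over all protein-coding genes this share was 13.4%. Of 12 genes of NRF1 and its partners in the study, only Nrf1 itself had a downstream peak. It lay at chr6:30047982-30048225 in the 5′ untranslated region of exon 1, 119 bp after the known start and within the promoter window of predicted and GENCODE starts of the gene, with a fold enrichment of 12.5 and no motif.

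Over all lists, 30 of 1068 genes had a downstream peak (2.81%), against 1.20% of all protein-coding genes. With predicted starts added, 21 of the 1068 did. Further summits of listed genes lay in the promoter window of a predicted or GENCODE start of the gene. Among them were those of Usp10, Kdm4a, Dhx30, Mettl14, Mettl21a and Srsf1. In the main setting the 30 had a median fold enrichment of 8.62. The motif was present at 20 of the 30 (66.7%) and 11 exceeded the list median (36.7%), close to the shares of all downstream peaks.

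The peaks nearest to the limits of the rule are given as values. Just inside the near limit were Esco1 (fold enrichment 14.0), Alg14 (11.1), Tial1 (9.45) and Fan1 (7.80), all 103 bp after the start, and just outside it Ndfip2 (12.2), Slbp (8.90) and a peak shared by Gm15420 and Rps10 (13.2), all at 98 bp. Just inside the far limit were Tob2 at 1976 bp (15.1) and Pim2 at 1917 bp (10.2), and just outside it 4932441J04Rik at 2004 bp (5.74) and Clec11a at 2024 bp (9.68). With the limit set at 1000 bp, 227 downstream peaks were left, and with predicted starts added there were 230.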

How the data were processed

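NRF1 ChIP-seq of wild-type mouse skeletal muscle was used as 1 deposited peak list. As the study describes, the authors mapped single-end reads with Bowtie to mm10, kept uniquely mapped reads, removed blacklisted regions (the list named belongs to a human build) and called peaks with MACS2 against input DNA. The methods mention the broad option, whereas the deposited list has narrow peaks with a summit each. Pooling is not stated and read depth is unknown, so weak sites may be missing.

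The authors deposited for each peak a fold enrichment, a ratio to the control background, and a q-value on the −log10 scale. From these, summits were placed on RefSeq GRCm38 with 45756 known transcripts (31603 starts), and predicted RefSeq and GENCODE basic starts served as alternatives, as did other peak sets, motif settings, positions and limits. The motif was searched on both strands, and overlapping copies were counted once. Fisher's exact test (two-sided) was applied to shares of peaks within the 1 list, with Benjamini-Hochberg adjustment over 12 tests and a threshold of 0.05. Wilson 95% intervals cover counting error only. Python 3.11.15, SciPy 1.17.1 and pysam 0.24.0 were used, and the search and tests were tested on simulated data.

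The downstream peaks, gene lists (by symbol) and tests were chosen with earlier results of these data known. Genes named were the 12 strongest peaks, the 5 strongest without the motif, the 12 strongest with the exact palindrome, those with at least 3 copies, the 4 weakest, the 3 strongest in coding exons, in other exons (untranslated and non-coding together), in introns and with a promoter peak, those of the lists and those at the limits. Others (Zfp180, Ptgr1, Rwdd2b, Mapre3, Dap3, Spop, Mdm2, Nedd4, Snrnp35, Luc7l2, Rnpc3, Trmo, Dus3l, Rbbp7, Mllt3, Nsd1, Prmt2, Mir6769b) were chosen after their values were seen.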

Additional observations from a re-analysis of the deposited data

How the results depend on the processing

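For 15 results 89 alternative values were computed, and 75 of these had the same direction and the same side of the threshold, or were counts within 1.5 times the main one. The number of downstream peaks ranged from 227 to 287 and the odds ratio of fold enrichment against promoter peaks from 0.39 to 0.63. The higher fold enrichment with the motif no longer passed with the motif within 50 bp of the summit (odds ratio 1.76), with GENCODE starts (1.74), with the centre of the interval in place of the summit (1.20), at a fold enrichment of at least 5 (2.13) or at a q of at most 1e-05 (1.87). The motif share against distal peaks passed with at most 2 mismatches (1.84) and changed direction within 50 bp (0.99) and with GENCODE starts (0.89). Comparisons that had not passed changed direction in 6 further cases, and did not pass there either. These were the motif against promoter peaks with no mismatch (1.05), the exact palindrome within 50 bp (0.95), fold enrichment against distal peaks with GENCODE starts (0.80), exonic against intronic fold enrichment with −log10 q in its place (1.12), the motif at near against far summits with no mismatch (2.06) and the motif at genes that also have a promoter peak at a q of at most 1e-05 (1.23). The cause was not tested. Replicates could not be left out, as the peaks form 1 list. No paired analysis was possible because both libraries form 1 group with 1 list. Unknown depth limits every count of genes without a peak.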

Other observations

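The genes below were chosen after their values were seen, and the values are given without a test. Slc2a4, which encodes the insulin-responsive glucose transporter GLUT4, had a peak at chr11:69947785-69947971 in intron 1, 330 bp after the known start, with a fold enrichment of 9.10 and a motif copy 8.5 bp from the summit. The summit also lay in the promoter window of a predicted start of Slc2a4. Gbe1, the glycogen branching enzyme, had 5.25, Phkg2, a catalytic subunit of phosphorylase kinase, had 4.81, and Ppp1r3e, a glycogen-targeting subunit of protein phosphatase 1, had 4.27. Srebf1, a regulator of lipid synthesis, had 4.72. These 5 peaks all lay below the list median of 10.7.

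In Laptm4a, which encodes a lysosomal membrane protein, both downstream peaks held the motif, with 11.4 in a coding exon and 7.97 in an intron. In Pcyox1 neither did, with 6.26 and 4.71, and its promoter peak had 3.87. The imprinted genes Peg13, a non-coding RNA, and Peg3 had 14.4 and 10.7.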
